A study of Rattus norvegicus with 12 samples.

Results

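S100 genes encode small calcium-binding proteins, and 10 of them were chosen by symbol for this account: S100a4, S100a6, S100a7a, S100a8, S100a9, S100a10, S100a11, S100a13, S100a14 and S100a16. Of these, 9 were found among the 30452 genes of the expression table, and S100a13 was not analysed here. RNA was sequenced from 12 rat cornea samples, with 3 libraries in each group. The groups carried the names SF/HA-HEP-PAM, SF/HA, Alkali-burned and Control. The series concerns a silk patch for the eye surface, and the labels spell out none of SF, HA, HEP and PAM. They do not state whether corneas of the SF/HA-HEP-PAM and SF/HA groups were burned, nor strain, age or time. They do not say whether the replicates came from separate animals, so the spread behind each p-value is that of these samples alone and may be technical. The comparisons with Control share the 3 Control libraries, and those with Alkali-burned share its 3 libraries.

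Most S100 proteins are dimers that change shape when they bind calcium and then attach to partners inside the cell, such as annexins and non-muscle myosin. Some members, above all S100a8 and S100a9, are also released from stressed or dying cells and act on the receptors Tlr4 and Ager (RAGE) as alarm signals. In skin and other surface epithelia S100a7, S100a8 and S100a9 are known as antimicrobial proteins that sequester metals such as zinc and are raised in inflammation. Neutrophils and monocytes hold large cytosolic stores of S100a8 and S100a9.

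The 9 genes lay on chromosome 2 of build mRatBN7.2 and were annotated as protein coding. From 176008395 to 176193230, a stretch of 184.8 kb, stood 7 of them in the order S100a14, S100a16, S100a4, S100a6, S100a7a, S100a8 and S100a9. S100a11 and S100a10 lay together 3.0 Mb further on, between 179191715 and 179229661. S100a9 (ENSRNOG00000011483, 176190361 to 176193230) was the sole member on the minus strand, and none of the 9 overlapped another gene of the table. S100a7a (ENSRNOG00000033352) ran from 176151288 to 176156441 and S100a8 (ENSRNOG00000011557) from 176167124 to 176167643.

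Start-site windows of the 4 members that the tests below called in at least 1 comparison are shown so that their sequences stand beside their levels. RefSeq held such windows, 250 bases before to 50 after the annotated start, for 7 of the 9 members on build GRCr8. Capitals mark matches to the TATA box TATAAA, the AP-1 motif TGANTCA, the C/EBP motif TTNNGNAA or the usual NF-kB consensus on either strand. The windows are chr2:178388279-178388578 (plus strand) for S100a4, chr2:178398287-178398586 (plus) for S100a6, chr2:178448733-178449032 (plus) for S100a7a and chr2:178490573-178490872 (minus) for S100a9.
S100a4: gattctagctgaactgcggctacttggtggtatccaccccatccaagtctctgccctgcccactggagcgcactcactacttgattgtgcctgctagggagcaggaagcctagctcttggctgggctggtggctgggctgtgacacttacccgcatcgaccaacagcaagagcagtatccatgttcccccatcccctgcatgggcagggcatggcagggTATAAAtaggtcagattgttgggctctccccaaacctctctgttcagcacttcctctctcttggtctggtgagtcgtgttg
S100a6: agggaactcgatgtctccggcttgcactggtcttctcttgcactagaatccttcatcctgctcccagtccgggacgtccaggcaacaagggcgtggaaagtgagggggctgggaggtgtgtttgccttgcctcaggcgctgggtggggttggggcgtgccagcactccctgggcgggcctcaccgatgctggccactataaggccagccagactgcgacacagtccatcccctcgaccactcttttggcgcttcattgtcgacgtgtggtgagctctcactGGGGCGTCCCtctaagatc
S100a7a: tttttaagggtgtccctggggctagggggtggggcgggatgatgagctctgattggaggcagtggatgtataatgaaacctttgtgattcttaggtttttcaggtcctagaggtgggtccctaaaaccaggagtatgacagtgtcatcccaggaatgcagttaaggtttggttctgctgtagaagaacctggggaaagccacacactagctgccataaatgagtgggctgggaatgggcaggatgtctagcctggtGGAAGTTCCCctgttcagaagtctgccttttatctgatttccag
S100a9: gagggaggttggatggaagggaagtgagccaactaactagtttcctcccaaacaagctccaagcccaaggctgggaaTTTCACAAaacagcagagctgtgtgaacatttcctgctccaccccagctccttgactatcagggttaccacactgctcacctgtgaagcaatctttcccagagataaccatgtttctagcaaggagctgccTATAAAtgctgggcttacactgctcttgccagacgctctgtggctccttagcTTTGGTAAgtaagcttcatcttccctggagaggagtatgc
The S100a4 window held TATAAA with its first base at -31 from the start site, and the S100a9 window held it at -42. S100a9 also had C/EBP matches at -173 on the minus strand and at 11 on the plus strand. The NF-kB consensus matched S100a6 at 32, on both strands, and S100a7a at 7 on the minus strand. Among 33469 RefSeq windows of 300 bases, TATAAA was found in 14.2%, TTNNGNAA in 41.3%, TGANTCA in 7.33% and the NF-kB consensus in 7.51%, so a match of this kind is common and describes the letters alone.

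Totals of reads on genes were 1245606 to 2117399 in SF/HA-HEP-PAM, 499061 to 957696 in SF/HA, 1173159 to 1265298 in Alkali-burned and 486264 to 1015788 in Control libraries. Levels are FPKM, read counts scaled to library size and gene length, in which the deposited length is the whole gene with introns, so levels of different genes are not compared here. Differences are log2(FPKM + 1) of the first-named group minus the second, tested with limma over the 6112 genes that reached 1 FPKM in 3 or more libraries. A gene was called at an adjusted p below 0.05 and a log2 difference above 1 or below -1. All 9 members passed the filter, and each also had over 1 FPKM in every Control library. Calls over all genes leaned higher in SF/HA-HEP-PAM against Control (79.4% of calls higher), a share of 57.6% with quantile normalization and 66.7% with median-of-ratios scaling. On these 3 scalings the share was 88.0%, 70.8% and 65.0% in SF/HA-HEP-PAM against SF/HA and 66.5%, 55.1% and 50.4% in SF/HA-HEP-PAM against Alkali-burned, and in Alkali-burned against Control 77.6% of calls were higher, or 63.3% after quantile normalization.

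The S100 genes split into 3 patterns. S100a7a, S100a6 and S100a4 were higher in all 3 other groups than in Control. S100a8 and S100a9 were also above Control in every library of those groups, but with 1 very high library in each. S100a10, S100a11, S100a14 and S100a16 were called in no comparison, with S100a10 in SF/HA-HEP-PAM at 0.60 times its Control level and 0.61 times its Alkali-burned level on the log2(FPKM + 1) scale. In Alkali-burned against Control 3 of the 9 members were called higher and 0 lower, where 4.42% of all genes were called higher and 1.28% lower, and the members' median difference was 2.17 against 0.06 for all genes. In SF/HA against Control 3 were called higher and 0 lower (3.19% and 1.37% of all genes), with a median of 1.87 against 0.00. In SF/HA-HEP-PAM against Control 4 were called higher and 0 lower (9.21% and 2.39% of all genes), with a median of 1.39 against 0.14. In limma's F-test among the groups 4 members passed at the adjusted threshold (26.7% of all genes did): S100a7a, S100a6, S100a4 and S100a9, the last at an adjusted p of 0.0455 that was lost in 12 of the alternative fits. S100a10 missed it narrowly (adjusted p = 0.0519) and passed with library weights (0.00559) and after quantile normalization (0.0153), among others. In bulk tissue, fewer cells of a type and less RNA per cell cannot be told apart.

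**Figure D1:**
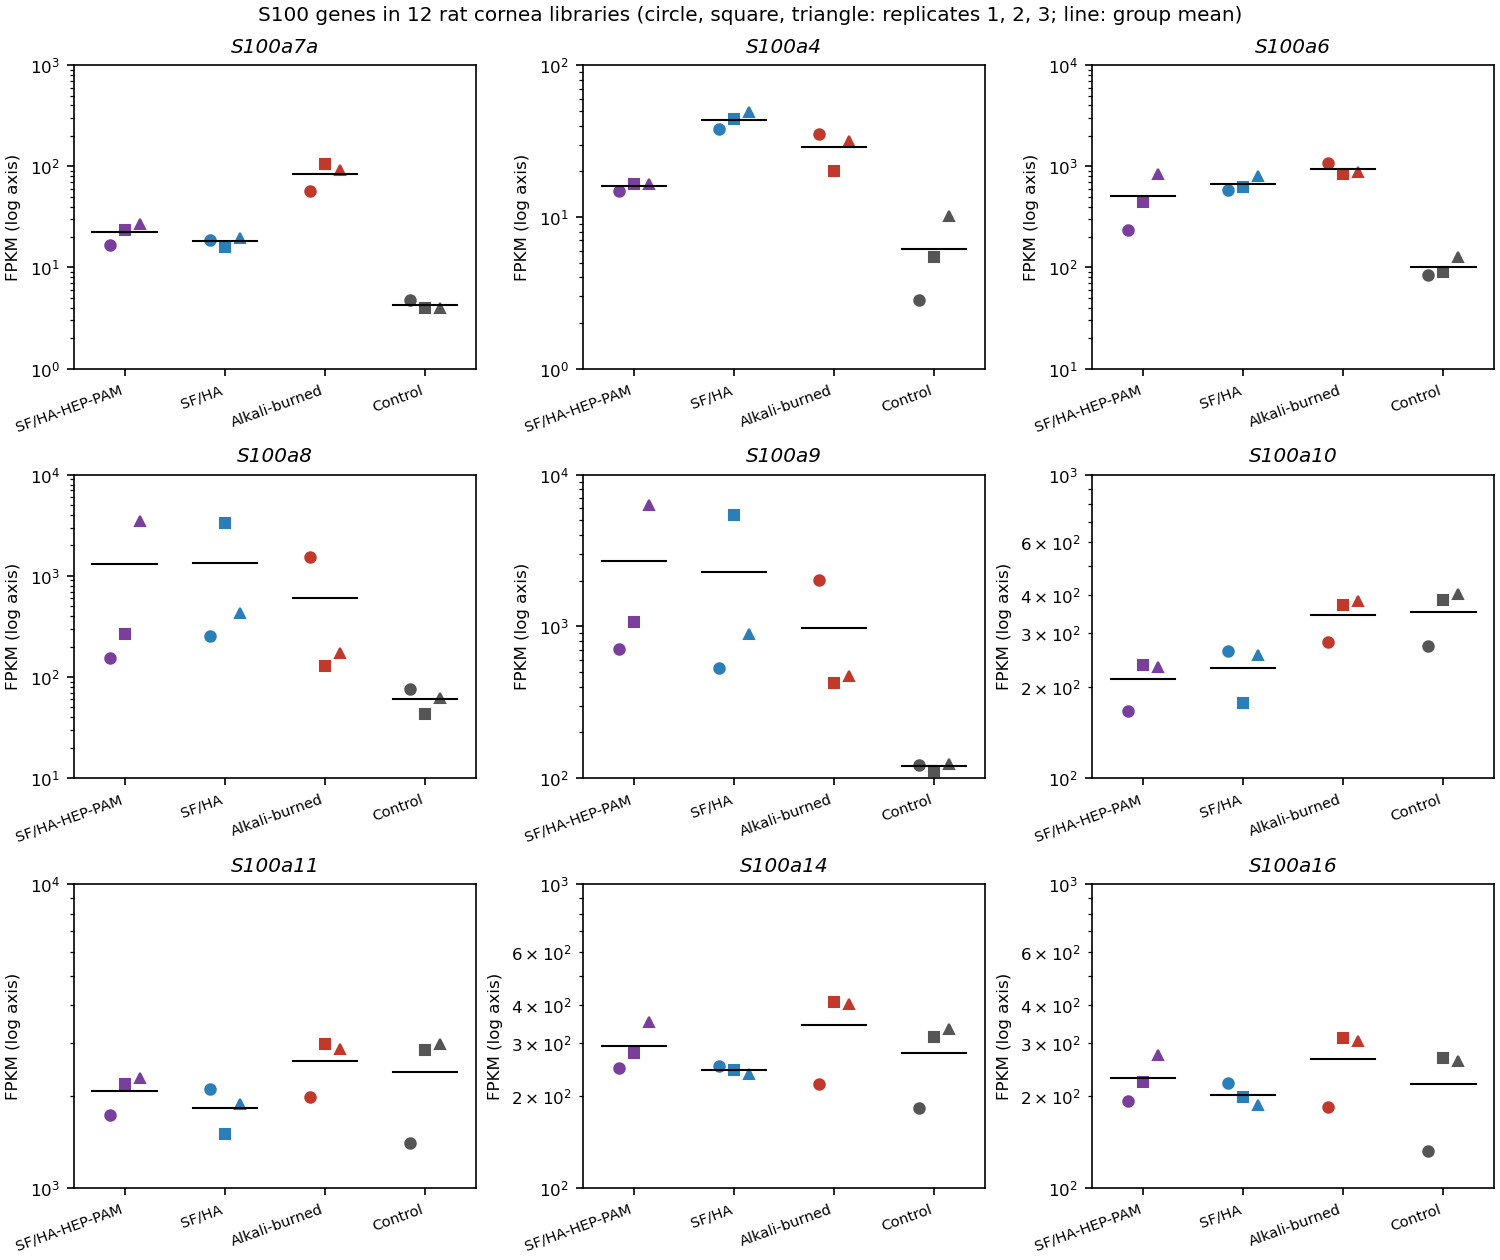
Level of each of the 9 S100 genes in each library (FPKM on a log axis), with 3 points per group for SF/HA-HEP-PAM, SF/HA, Alkali-burned and Control, and bars at the group means. S100a7a, S100a6 and S100a4 sit above Control in every library of the other groups, and S100a8 spans 154 to 3472 FPKM within SF/HA-HEP-PAM alone.

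S100a7a, the rat relative of psoriasin, an antimicrobial protein of inflamed epidermis in humans, had the clearest pattern. Its level was 56.7, 105 and 91.5 FPKM in Alkali-burned and 4.79, 3.94 and 4.01 FPKM in Control libraries. All 3 Alkali-burned libraries were far above all 3 Control libraries, which were close to each other. The difference was 3.98 (SE 0.24, adjusted p = 4.24e-05), a fold of 15.8 on the log2(FPKM + 1) scale. Control values rested on 12, 18 and 21 reads, so the fold depends on the pseudocount, and the difference was 3.23 at a pseudocount of 5.

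S100a7a was lower with either patch than in Alkali-burned corneas, and still higher than in Control. SF/HA-HEP-PAM libraries held 16.5, 23.4 and 26.8 FPKM, and SF/HA libraries 18.9, 15.9 and 19.7 FPKM. None of these 6 libraries reached the lowest Alkali-burned library, and none came down to the highest Control library. Against Alkali-burned the difference was -1.86 (SE 0.24, adjusted p = 0.000628) in SF/HA-HEP-PAM and -2.11 (SE 0.24, adjusted p = 0.00183) in SF/HA. Against Control it was 2.12 (adjusted p = 0.000375) in SF/HA-HEP-PAM and 1.87 (adjusted p = 0.00176) in SF/HA. S100a7a was the sole member called lower in SF/HA against Alkali-burned, where 2.06% of all genes were called lower and 0.376% higher, and the sole member in SF/HA-HEP-PAM against Alkali-burned, where 3.71% were called lower and 7.38% higher. Between the patches, SF/HA-HEP-PAM against SF/HA gave 0.26 with a 95% interval of -0.27 to 0.79 (adjusted p = 0.543). These 5 called differences of S100a7a kept their calls under every alternative fit and with each library left out.

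S100a6 (calcyclin), an annexin-binding protein of proliferating cells and fibroblasts, was 1070, 842 and 886 FPKM in Alkali-burned and 85.0, 90.6 and 127 FPKM in Control libraries. The groups were far apart, and the Control library with 127 FPKM was the highest of its group. The difference was 3.21 (SE 0.38, adjusted p = 0.00105), a fold of 9.27. SF/HA-HEP-PAM libraries had 233, 441 and 844 FPKM, and SF/HA libraries 577, 625 and 801 FPKM. Every patch library lay above every Control library, with a difference of 2.15 (SE 0.38, adjusted p = 0.00351) in SF/HA-HEP-PAM and 2.72 (SE 0.38, adjusted p = 0.00264) in SF/HA. The SF/HA-HEP-PAM libraries were spread more widely than the others (506 ± 311 FPKM, SD, n = 3, against 668 ± 118 in SF/HA, 933 ± 121 in Alkali-burned and 101 ± 22.6 in Control).

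SF/HA libraries all lay below the lowest Alkali-burned library in S100a6, but the difference of -0.49 was not called (95% interval -1.33 to 0.35, adjusted p = 0.581). For SF/HA-HEP-PAM against Alkali-burned it was -1.07 (SE 0.38, adjusted p = 0.0680), not called, and replicate 3 with 844 FPKM lay within the Alkali-burned range. Without SF/HA-HEP-PAM replicate 3 the difference was -1.53 (adjusted p = 0.0102), which passes the threshold. With all libraries it was also called after quantile normalization (adjusted p = 0.0378), with library weights (0.0215), with a replicate block (0.0495) and with voom on recovered reads (0.0160).

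S100a4, which binds non-muscle myosin (Myh9) and is known from motile fibroblasts and macrophages, was ordered differently. SF/HA-HEP-PAM libraries had 14.9, 16.6 and 16.6 FPKM, SF/HA libraries 38.2, 44.2 and 48.9 FPKM, Alkali-burned libraries 35.2, 20.2 and 31.7 FPKM, and Control libraries 2.83, 5.44 and 10.2 FPKM. None of these 4 ranges overlapped another, with SF/HA the highest, then Alkali-burned, then SF/HA-HEP-PAM, and Control the lowest. The Control values stood on 2, 7 and 15 reads, and no library held more than 68 reads of the gene. Against Control the differences were 1.39 in SF/HA-HEP-PAM (SE 0.34, adjusted p = 0.0159), 2.77 in SF/HA (adjusted p = 0.00155) and 2.17 in Alkali-burned (adjusted p = 0.00450). The call in SF/HA-HEP-PAM was lost without SF/HA-HEP-PAM replicate 3 (adjusted p = 0.0537), at a pseudocount of 5 (0.97) and in a fit of the compared libraries alone (adjusted p = 0.0602), and such a fit also lost the call in Alkali-burned (adjusted p = 0.0517).

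S100a4 was the sole member called between the patches, lower in SF/HA-HEP-PAM than in SF/HA, where 0.524% of all genes were called lower and 3.84% higher. Its mean was 16.04 ± 0.970 FPKM in SF/HA-HEP-PAM and 43.8 ± 5.39 FPKM in SF/HA (SD, n = 3 each), a difference of -1.39 (SE 0.34, adjusted p = 0.0320). The call was lost when any of the 6 patch libraries was left out (adjusted p from 0.0604 to 0.114) and with no filter on low values (0.0627), although the difference stayed between -1.48 and -1.31. Against Alkali-burned, with 29.0 ± 7.89 FPKM, S100a4 was not called in either patch group: the difference was -0.78 in SF/HA-HEP-PAM (adjusted p = 0.125) and 0.61 in SF/HA (adjusted p = 0.403).

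Macrophage markers were called higher against Control in the same 3 groups as S100a4 and S100a6, but did not follow them in every comparison. Of 16 measured markers, 11 were tested, and 9 were called higher and 0 lower in Alkali-burned against Control, 8 higher and 1 lower in SF/HA against Control, and 8 higher and 1 lower in SF/HA-HEP-PAM against Control. Against Alkali-burned 1 was higher and 3 lower in SF/HA-HEP-PAM and 1 higher and 2 lower in SF/HA, and none was called between the patches, where S100a4 was. Their median difference in SF/HA-HEP-PAM was 0.02 against Alkali-burned and -0.48 against SF/HA, where the median of all genes was 0.13. Their summed level was 231 to 239 FPKM in SF/HA-HEP-PAM, 246 to 454 in SF/HA, 341 to 413 in Alkali-burned and 116 to 153 in Control libraries. Lyz2, a lysozyme of macrophages and other myeloid cells, was 39.95, 57.3 and 50.02 FPKM in SF/HA-HEP-PAM, 47.2, 99.5 and 55.2 in SF/HA, 35.7, 38.4 and 38.5 in Alkali-burned and 5.05, 3.83 and 7.06 in Control libraries. Arg1 was the marker called lower in both patch groups against Control (-2.14 in SF/HA-HEP-PAM, -1.96 in SF/HA). Of 10 keratocyte and stromal markers tested, 2 were called lower in SF/HA-HEP-PAM than in SF/HA, the proteoglycans Dcn (-1.21) and Lum (-1.11), with a list median of -0.88. The summed level of that list was 745 to 1254 FPKM in SF/HA-HEP-PAM, 2039 to 2237 in SF/HA, 1664 to 2165 in Alkali-burned and 2051 to 5366 in Control libraries. The part of either cell type in the S100a4 and S100a6 differences was not tested.

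**Figure D2:**
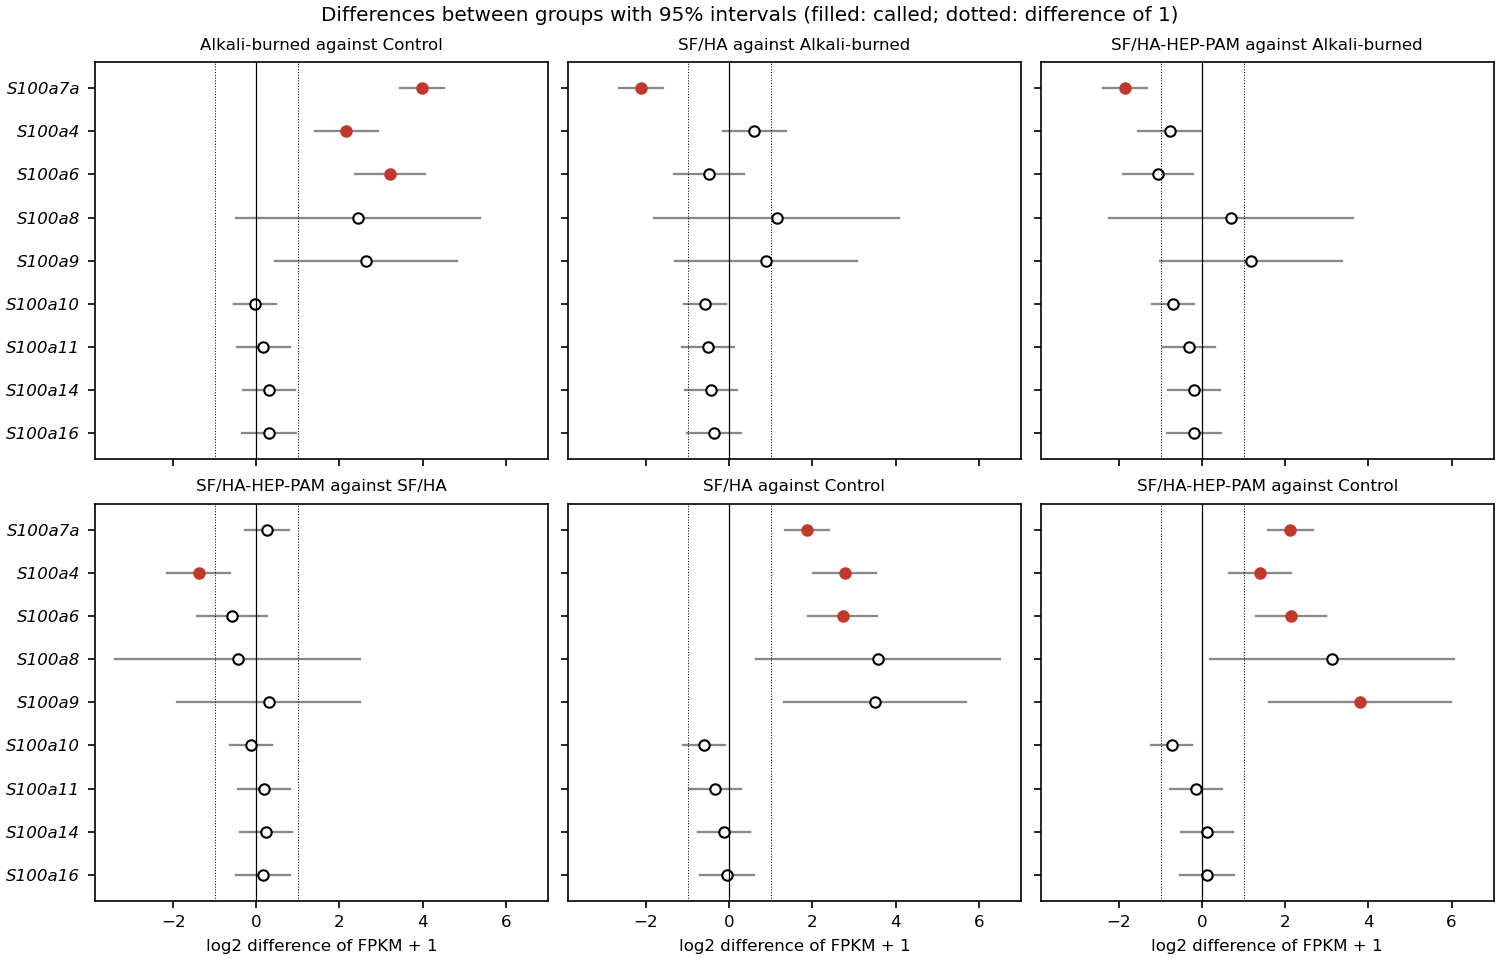
Log2 difference of each S100 gene in the 6 comparisons with its 95% interval, filled where limma called it. S100a7a is called in 5 comparisons, S100a8 has intervals several log2 units wide, and the differences of S100a10, S100a11, S100a14 and S100a16, though not all their intervals, stay between -1 and 1.

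S100a8 and S100a9 together form calprotectin, the antimicrobial protein that binds zinc and manganese. Each was higher in every SF/HA-HEP-PAM, SF/HA and Alkali-burned library than in any Control library, yet the levels within those groups ranged widely. S100a8 was 154, 265 and 3472 FPKM in SF/HA-HEP-PAM, 256, 3299 and 432 FPKM in SF/HA, 1528, 128 and 174 FPKM in Alkali-burned and 75.1, 43.4 and 62.5 FPKM in Control libraries. A single library in each group but Control stood apart: SF/HA-HEP-PAM replicate 3, SF/HA replicate 2 and Alkali-burned replicate 1. The highest library had 22.5 times the lowest in SF/HA-HEP-PAM, 12.9 times in SF/HA, 12 times in Alkali-burned and 1.73 times in Control.

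S100a9 was high in the same 3 libraries. It was 709, 1061 and 6279 FPKM in SF/HA-HEP-PAM, 534, 5395 and 886 FPKM in SF/HA, 2037, 423 and 474 FPKM in Alkali-burned and 123, 111 and 124 FPKM in Control libraries. The difference from Control was 3.81 in SF/HA-HEP-PAM (SE 0.99, adjusted p = 0.0206), which was called. It was 3.51 in SF/HA (adjusted p = 0.0642) and 2.63 in Alkali-burned (95% interval 0.44 to 4.82, adjusted p = 0.137), which were not. The SF/HA-HEP-PAM call was lost without SF/HA-HEP-PAM replicate 3 (2.85, adjusted p = 0.0759), with no filter on low values (adjusted p = 0.0555), without Control replicate 2 (adjusted p = 0.0556) and without Control replicate 3 (adjusted p = 0.0531). With voom on recovered reads S100a9 was also called in SF/HA (adjusted p = 0.0142) and Alkali-burned (adjusted p = 0.0482), and in SF/HA also among genes of at least 5 FPKM (adjusted p = 0.0419).

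S100a8 was called in no comparison. Against Control the difference was 3.13 in SF/HA-HEP-PAM (95% interval 0.19 to 6.07, adjusted p = 0.120), 3.58 in SF/HA (0.64 to 6.52, adjusted p = 0.143) and 2.44 in Alkali-burned (-0.50 to 5.38, adjusted p = 0.296). In the higher direction 5 of the 9 members had no overlap with Control in each of the other groups, as did 27.2% of all genes in SF/HA-HEP-PAM, 12.9% in SF/HA and 19.1% in Alkali-burned. Without its highest library the S100a8 difference from Control was 1.76 in SF/HA-HEP-PAM, 2.48 in SF/HA and 1.32 in Alkali-burned. Against Alkali-burned the patch groups gave 0.69 (95% interval -2.25 to 3.62) in SF/HA-HEP-PAM and 1.14 (-1.80 to 4.08) in SF/HA for S100a8. For S100a9 it was 1.18 (-1.01 to 3.37) in SF/HA-HEP-PAM and 0.88 (-1.31 to 3.07) in SF/HA. Intervals of this width leave differences of several fold in either direction undetectable with 3 libraries a group.

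**Figure D3:**
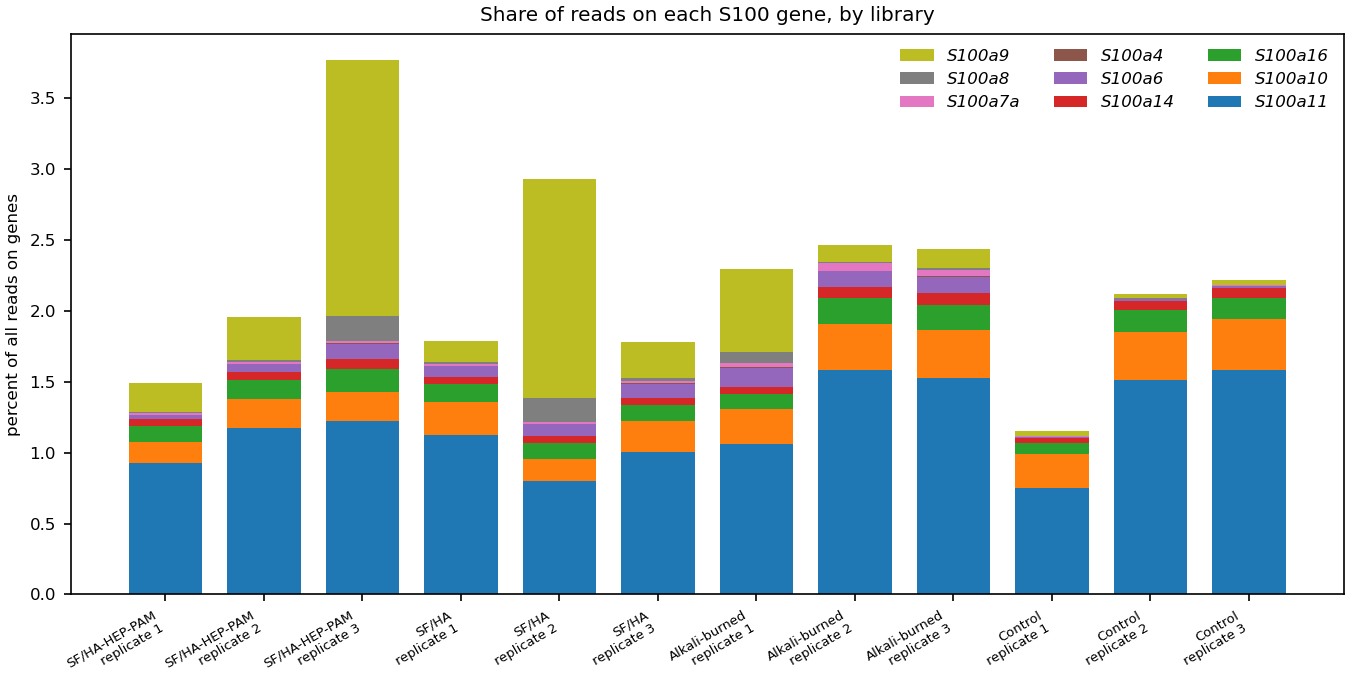
Percent of all assigned reads taken by each S100 gene, stacked by library, for SF/HA-HEP-PAM, SF/HA, Alkali-burned and Control from left to right. The stack is tallest in SF/HA-HEP-PAM replicate 3 at 3.77% and in SF/HA replicate 2 at 2.93%, both through S100a9.

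Together the 9 genes took 1.49%, 1.96% and 3.77% of assigned reads in SF/HA-HEP-PAM, 1.79%, 2.93% and 1.78% in SF/HA, 2.30%, 2.46% and 2.44% in Alkali-burned and 1.16%, 2.12% and 2.22% in Control libraries. Every Alkali-burned library lay above every Control library in this share, and all other pairs of groups overlapped. S100a11 took more reads than the other 8 genes together in 9 of 12 libraries. The 95% Wilson interval of the largest share was 3.73% to 3.80%, and such intervals cover counting error only. S100a9 supplied 22448 of the 46934 S100 reads of SF/HA-HEP-PAM replicate 3.

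The balance within the calprotectin pair also varied between libraries. S100a8 made up 3.80% (95% Wilson interval 3.17 to 4.54), 4.33% (3.87 to 4.84) and 9.11% (8.75 to 9.47) of the pair's reads in SF/HA-HEP-PAM. In SF/HA it made up 7.996% (6.54 to 9.74), 9.97% (9.36 to 10.6) and 8.11% (7.13 to 9.21). In Alkali-burned the shares were 12% (11.3 to 12.7), 5.19% (4.21 to 6.37) and 6.23% (5.19 to 7.45), and in Control 10% (6.50 to 15.1), 6.60% (4.31 to 9.97) and 8.38% (6.03 to 11.5). In each of SF/HA-HEP-PAM, SF/HA and Alkali-burned the library with the most S100a8 and S100a9 also had the largest S100a8 share, with part overlap of intervals in SF/HA, while the Control intervals overlapped one another.

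**Figure D4:**
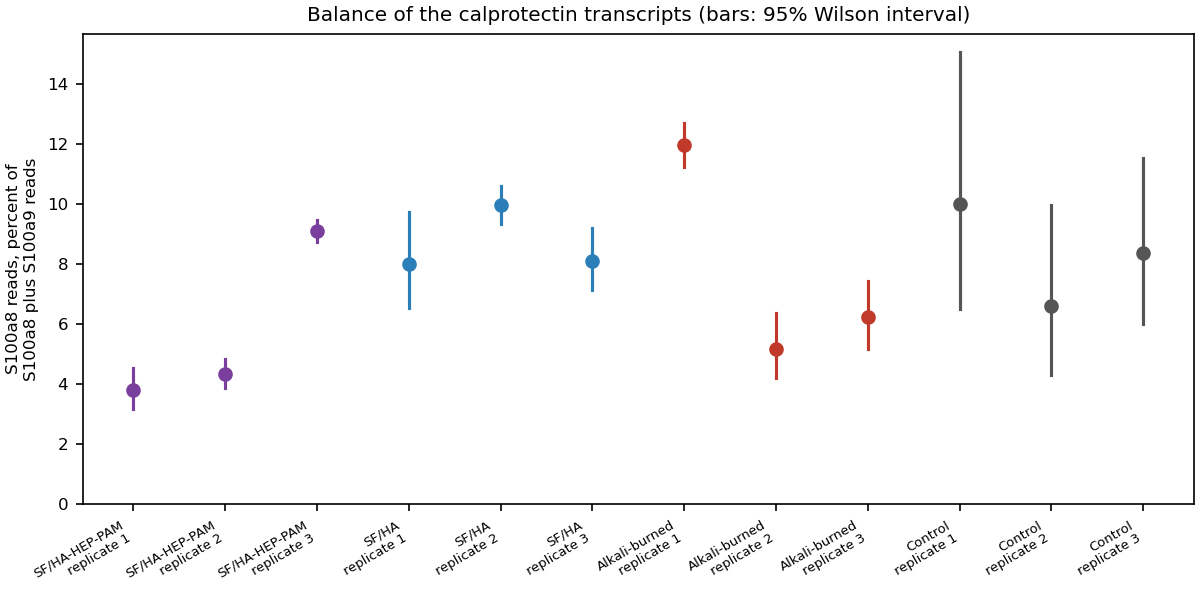
Percent of S100a8 plus S100a9 reads that were S100a8, by library, with 95% Wilson intervals for counting error. SF/HA-HEP-PAM replicates 1 and 2 are lowest at 3.80% and 4.33%, and Alkali-burned replicate 1 is highest at 12%.

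Some neutrophil markers peaked in the same 3 libraries, while many had few or no reads in any library. The gelatinase Mmp9 was 0.845, 0.686 and 4.66 FPKM in SF/HA-HEP-PAM, 0, 3.39 and 1.14 in SF/HA, 8.36, 1.34 and 2.19 in Alkali-burned and 0.249, 0.546 and 0.477 in Control libraries. The decoy receptor Il1r2 was 0.832, 1.42 and 1.89 FPKM in SF/HA-HEP-PAM, 1.15, 3.58 and 1.27 in SF/HA, 0.783, 0.451 and 0.408 in Alkali-burned and 0.0510, 0.112 and 0.0977 in Control libraries. Mmp9, Il1r2 and the myeloid receptor Trem1 were each highest of their group in SF/HA-HEP-PAM replicate 3, SF/HA replicate 2 and Alkali-burned replicate 1, the libraries with the most S100a8. Other markers with reads did not follow S100a8 in every group. In SF/HA-HEP-PAM replicates 1, 2 and 3, Fcgr3a had 28, 6 and 1 reads and Itgb2 8, 22 and 8. In Alkali-burned replicates 1, 2 and 3, Itgam had 2, 2 and 4 reads and Csf3r 1, 0 and 2. The chemokine receptor Cxcr2 had 3, 2 and 9 reads in SF/HA-HEP-PAM, 0, 4 and 1 in SF/HA, 1, 1 and 0 in Alkali-burned and 0 in each Control library. Of 23 such genes measured, 6 had 0 reads in all 12 libraries, namely Mpo, Ltf, Fpr1, Cxcr1, Ctsg and Retnlg, and 14 had at most 5 reads in every library. Their summed level was 64.5 to 170 FPKM in SF/HA-HEP-PAM, 23.3 to 177 FPKM in SF/HA, 45.2 to 52.2 FPKM in Alkali-burned and 10.03 to 20.7 FPKM in Control libraries. Most of that FPKM sum was Lcn2, an iron-sequestering protein that stressed epithelium also makes. Such a sum depends on gene length: in reads, Lcn2 held 45 of 93 in SF/HA replicate 1 and 676 of 886 in SF/HA-HEP-PAM replicate 3. Lcn2 was 58.0, 67.1 and 159 FPKM in SF/HA-HEP-PAM, 19.8, 161 and 40.4 in SF/HA, 41.8, 43.1 and 41.7 in Alkali-burned and 9.65, 15.9 and 18.8 in Control libraries, so it peaked in the same SF/HA-HEP-PAM and SF/HA libraries as S100a8 but not in Alkali-burned replicate 1. Of 4 neutrophil markers tested, Lcn2 was called in SF/HA-HEP-PAM against Control (2.50), and Il1r2 in SF/HA-HEP-PAM (1.11) and SF/HA (1.37) against Control, and none was called in the other 4 comparisons. Il1r2 stayed below 1 FPKM in every Alkali-burned and Control library, so it passed the filter through patch libraries alone, which favours a higher call. The part of neutrophils in the S100a8 and S100a9 levels was not tested.

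S100a10, S100a11, S100a14 and S100a16 were the members without a call. S100a10 (p11), which joins annexin A2 (Anxa2) at membranes and does not bind calcium itself, was 167, 235 and 233 FPKM in SF/HA-HEP-PAM, 262, 177 and 255 FPKM in SF/HA, 281, 372 and 384 FPKM in Alkali-burned and 272, 385 and 404 FPKM in Control libraries. Every library of both patch groups was below every library of Alkali-burned and Control. Such separation in the lower direction held for 11.7% of all genes in SF/HA-HEP-PAM and 9.08% in SF/HA against Control (1 of the 9 members in each), and for 21.3% in SF/HA-HEP-PAM and 13.4% in SF/HA against Alkali-burned (3 members in each). In the higher direction SF/HA against Alkali-burned separated 9.7% of all genes and 1 member, S100a4. Between the patches, 1 member, S100a4, separated in the lower direction and 0 in the higher one, where 9.69% and 21.6% of all genes did. The SF/HA-HEP-PAM difference was -0.74 against Control (SE 0.23, adjusted p = 0.0416) and -0.71 against Alkali-burned (SE 0.23, adjusted p = 0.0474), under the fold threshold in both. That of SF/HA was -0.61 against Control (adjusted p = 0.143) and -0.59 against Alkali-burned (adjusted p = 0.221). Alkali-burned against Control gave -0.03 (95% interval -0.53 to 0.48). RefSeq lists near copies of S100a10 and S100a11, so their counts are uncertain where reads could be divided among copies.

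S100a11 (calgizzarin), a partner of annexin A1 in epidermis, was 1739, 2203 and 2298 FPKM in SF/HA-HEP-PAM, 2111, 1497 and 1880 in SF/HA, 1995, 2965 and 2870 in Alkali-burned and 1406, 2841 and 2974 in Control libraries. S100a14, an epithelial member, averaged 292 ± 53.3 FPKM in SF/HA-HEP-PAM, 245 ± 7.58 in SF/HA, 343 ± 108 in Alkali-burned and 277 ± 81.2 in Control (SD, n = 3 each). S100a16, its neighbour in the genome and a broadly expressed member, averaged 230 ± 41.3 FPKM in SF/HA-HEP-PAM, 202 ± 17.2 in SF/HA, 266 ± 71.6 in Alkali-burned and 220.1 ± 76.8 in Control. The groups overlapped for all 3 genes in all 6 comparisons, and their differences ran from -0.50 to 0.31. The 95% interval of S100a16 in Alkali-burned against Control was -0.34 to 0.95.

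Control replicate 1 and Alkali-burned replicate 1 were the lowest of their groups in S100a11, S100a14 and S100a16. Krt12, the keratin that marks corneal epithelium, was also lowest there: it was 1033, 1878 and 1717 FPKM in Alkali-burned and 1697, 3655 and 3354 FPKM in Control libraries. It was 2254, 2340 and 1832 FPKM in SF/HA-HEP-PAM and 1950, 1393 and 1366 FPKM in SF/HA. Control replicate 1 also had 2542 FPKM of the stromal collagen Col1a1, against 910 and 990 FPKM in the other Control libraries. Without Control replicate 1 the difference in Alkali-burned against Control was -0.18 for S100a11 and -0.03 for S100a16, where all libraries gave 0.17 and 0.31. The part of epithelial content in these levels was not tested. The median difference of all genes in SF/HA-HEP-PAM against Control was 0.14 as deposited, 0.00 with median-of-ratios scaling and -0.11 with quantile normalization. The differences of S100a14 (0.11) and S100a16 (0.12) in that comparison lay below the deposited median of 0.14. With median-of-ratios scaling they were -0.094 and -0.086, below the median of 0.00. After quantile normalization they were -0.08 and -0.06, above the median of -0.11.

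Among the members, S100a14 and S100a16 had the most alike profiles over the 12 libraries. After centring log2(FPKM + 1) at each gene's mean, their mean absolute difference was 0.06, with 0.13 between S100a11 and S100a16, 0.15 between S100a11 and S100a14 and 0.19 between S100a10 and S100a11. S100a8 and S100a9 were 0.45 apart and S100a4 and S100a6 0.57 apart, on a scale where genes that vary little are close by that fact alone. These are descriptions over libraries that share their groups.

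The 5 genes nearest to S100a8 by the same measure were S100a9 (0.45), the beta-defensin Defb4 (0.56), the chemokines Ccl3 (0.77) and Cxcl6 (0.85) and the stefin Stfa2l2 (0.90). They were chosen by profile, so peaks shared with S100a8 follow in part from that choice. Defb4 was 5.03, 4.14 and 62.8 FPKM in SF/HA-HEP-PAM, 2.34, 33.2 and 12.1 in SF/HA, 16.01, 2.97 and 1.54 in Alkali-burned and 0, 0.353 and 0.616 in Control libraries, and so was highest in the same library of each group but Control. Ccl3 was highest in these libraries too, with 435 FPKM in SF/HA-HEP-PAM replicate 3, 565 FPKM in SF/HA replicate 2 and 67.6 FPKM in Alkali-burned replicate 1, where its group began at 52.5 FPKM. Cxcl6 was 32.5 FPKM in SF/HA-HEP-PAM replicate 3, 52.6 FPKM in SF/HA replicate 2 and 49.5 FPKM in Alkali-burned replicate 1, the highest of each group, with SF/HA replicate 3 near at 43.1 FPKM. Stfa2l2 was 18.3 FPKM in SF/HA-HEP-PAM replicate 3 and 16.1 FPKM in SF/HA replicate 2, but 0.720 FPKM, the lowest of its group, in Alkali-burned replicate 1.

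The 5 nearest to S100a7a were the linker histone H1f1 (0.45), the chemoattractant Rarres2 (chemerin, 0.56), Crct1 of the cornifying epithelium (0.56), AABR07067749.1 (0.57) and the interferon-induced GTPase Gbp2 (0.58). Crct1 averaged 147 ± 125 FPKM in SF/HA-HEP-PAM, 104 ± 51.3 in SF/HA, 503 ± 72.8 in Alkali-burned and 26.1 ± 13.2 in Control (SD, n = 3 each). Rarres2 averaged 16.5 ± 3.70 FPKM in SF/HA-HEP-PAM, 26.3 ± 7.33 in SF/HA, 45.7 ± 12.2 in Alkali-burned and 5.88 ± 1.48 in Control. Both were highest in Alkali-burned and lowest in Control, as S100a7a was, a likeness that follows from choosing them by profile.

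**Figure D5:**
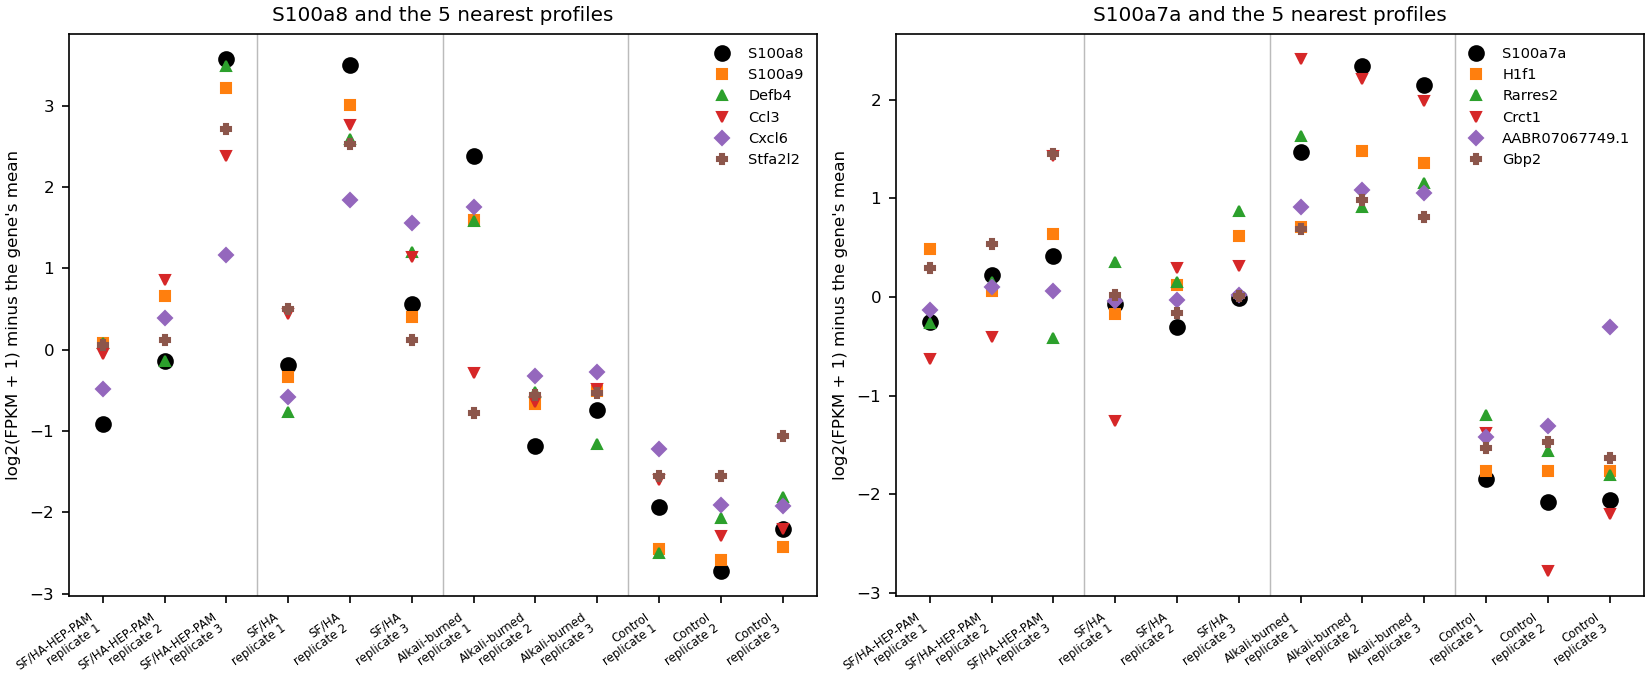
Centred log2(FPKM + 1) of S100a8 and of S100a7a in each library beside the 5 genes with the nearest profiles. The genes beside S100a8 are highest of their group in SF/HA-HEP-PAM replicate 3 and SF/HA replicate 2, and those beside S100a7a are lowest in Control.

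Other S100 genes were scarce in these corneas. Of 8 measured, 2 passed the filter, S100a1 and S100g, and none was called in any of the 6 comparisons. S100a1, a member known from muscle, averaged 1.86 ± 0.55 FPKM in SF/HA-HEP-PAM, 3.19 ± 0.94 in SF/HA, 3.90 ± 0.47 in Alkali-burned and 2.09 ± 0.25 in Control, and its difference in SF/HA-HEP-PAM against Alkali-burned was -0.79 (adjusted p = 0.0174), under the fold threshold. It passed limma's F-test among the groups (adjusted p = 0.0350), as did 26.7% of all genes. Its Alkali-burned libraries all lay above its Control libraries (0.66, adjusted p = 0.0623), as in 19.1% of all genes. S100g rested on single libraries, with 40 of 40 reads of SF/HA in 1 library and 33 of 34 reads of Control in another. S100b, a marker of Schwann cells and melanocytes, was below the filter, with 10 to 26 reads in SF/HA-HEP-PAM, 6 to 18 in SF/HA, 21 to 29 in Alkali-burned and 0 to 3 in Control libraries. S100a3, S100a5 and S100z had 0 to 6 reads in any library, and S100a7l2 and S100vp 0 reads in all.

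Of 8 measured receptors of the released proteins, 3 were tested, and Tlr4 and Ager were among those below the filter. Both against Alkali-burned and against Control 1 was called higher and 0 lower in SF/HA-HEP-PAM, and none was called in the other 4 comparisons. Cd69, which binds S100a8 with S100a9 and marks activated lymphocytes, averaged 2.18 ± 1.09 FPKM in SF/HA-HEP-PAM, against 0.338 ± 0.293 in Alkali-burned (1.21, SE 0.25, adjusted p = 0.00771) and 0.218 ± 0.0845 in Control (1.32, adjusted p = 0.00540). Cd69 averaged under 1 FPKM in Alkali-burned and Control, so it passed the filter through the patch libraries, which favours a higher call. The receptor Bsg (CD147) was 122, 134 and 130 FPKM in SF/HA-HEP-PAM and 102, 104 and 103 FPKM in Control libraries and was not called.

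Of 12 binding partners 9 were tested, and none was called in Alkali-burned against Control, SF/HA against Control, SF/HA against Alkali-burned or SF/HA-HEP-PAM against SF/HA. Between SF/HA-HEP-PAM and Alkali-burned 3 were higher and 0 lower in SF/HA-HEP-PAM: the scaffold Ahnak, a partner of S100a10 with annexin A2 (1.21), the myosin heavy chain Myh9 bound by S100a4 (1.07), and the membrane linker Ezr (1.03). Against Control, SF/HA-HEP-PAM had 2 higher and 0 lower, Myh9 (1.20) and Anxa1 (1.03), the annexin bound by S100a11. Anxa1 averaged 417 ± 90.9 FPKM in SF/HA-HEP-PAM and 205 ± 49.7 FPKM in Control. In Alkali-burned against Control Anxa1 differed by 0.92 (adjusted p = 0.0247) and Ahnak by -0.92 (adjusted p = 0.0203), both under the fold threshold. The Ahnak difference in SF/HA-HEP-PAM against Control was 0.28 (adjusted p = 0.360). Between the patches, where S100a4 was called lower in SF/HA-HEP-PAM, Myh9 had 2.71, 3.56 and 5.95 FPKM in SF/HA-HEP-PAM and 1.56, 2.88 and 1.18 FPKM in SF/HA and was not called.

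Of 11 cytokines known to induce antimicrobial S100 genes in skin 6 were tested, and some were raised in each of the 3 groups against Control. In Alkali-burned against Control 2 rose and 0 fell, Il6 (1.99) and Tnf (1.79). In SF/HA against Control 3 rose and 0 fell, Il1b (2.90), Il6 (2.83) and Osm (1.82), and the same 3 rose in SF/HA-HEP-PAM against Control, Il1b by 2.58, Il6 by 1.97 and Osm by 1.48. Osm averaged 0.083 FPKM in Control, so it passed the filter through the other groups, which favours a higher call. Tnf fell by 1.63 in SF/HA-HEP-PAM and by 1.92 in SF/HA against Alkali-burned, as S100a7a did in both, and it was the sole cytokine called there. Tnf was 5.33, 6.49 and 12 FPKM in SF/HA-HEP-PAM, 4.00, 6.12 and 8.37 in SF/HA, 17.9, 25.3 and 35.4 in Alkali-burned and 3.93, 9.05 and 7.89 in Control libraries, with no patch library as high as the lowest Alkali-burned library. Il1b was 36.5, 52.6 and 129 FPKM in SF/HA-HEP-PAM, 43.7, 175 and 64.5 in SF/HA, 25.9, 31.1 and 26.9 in Alkali-burned and 13.8, 6.87 and 9.53 in Control libraries, and it peaked in SF/HA-HEP-PAM replicate 3 and SF/HA replicate 2. None was called between the patches. The part of these cytokines in the S100 levels was not tested.

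The 9 members lie in or beside the epidermal differentiation complex, the region of cornified envelope genes. Of 18 other genes of that complex in the table, 6 were tested. In Alkali-burned against Control 3 rose and 0 fell: Crct1 (4.32), Sprr3 (2.69) and Sprr1a (1.69), a precursor of the cornified envelope. Against Alkali-burned 0 rose and 2 fell in SF/HA-HEP-PAM, Crct1 (-2.07) and Sprr3 (-1.70), and in SF/HA-HEP-PAM against Control 2 rose and 0 fell, Sprr1a (2.33) and Crct1 (2.25). None was called in the other 3 comparisons. Crct1 had the order of group means of S100a7a, and Sprr1a did not: it averaged 1349 ± 739 FPKM in SF/HA-HEP-PAM, 820 ± 401 in SF/HA, 794 ± 238 in Alkali-burned and 241 ± 50.1 in Control.

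Stressed epithelium markers, 9 genes tested, had 3 higher in Alkali-burned against Control, Defb14 (3.98), Slpi (2.23) and Krt6a (2.01, ENSRNOG00000068586), and 4 higher in SF/HA and 8 higher in SF/HA-HEP-PAM against Control, with none lower. A further gene with the symbol Krt6a (ENSRNOG00000070470) averaged 37.9 ± 8.75 FPKM in Alkali-burned and 163 ± 131 in Control and was not called (-1.34), and the counts of both are uncertain if reads were divided between them. In SF/HA-HEP-PAM against Alkali-burned 3 were higher, Serpinb2 (3.81), Lypd3 (2.27) and Krt17 (2.26), and 0 lower, and none was called in SF/HA against Alkali-burned or between the patches. Corneal epithelium markers, 16 tested, had 0 higher and 6 lower in Alkali-burned against Control, 1 and 2 in SF/HA against Control, 4 and 2 in SF/HA-HEP-PAM against Control, 9 and 0 in SF/HA-HEP-PAM against Alkali-burned, none in SF/HA against Alkali-burned and 2 and 0 between the patches. Keratocyte and stromal markers, 10 tested, had 0 higher in any comparison, with 4 lower in SF/HA-HEP-PAM, 3 in SF/HA and 4 in Alkali-burned against Control, 3 lower in SF/HA-HEP-PAM and 0 in SF/HA against Alkali-burned, and 2 lower between the patches. Conjunctival markers (3 tested) had 1 call, Krt4 lower in Alkali-burned than in Control (-1.61). The sole T and NK cell marker tested was not called, and no melanocyte or Schwann cell marker passed the filter. Corneal endothelium markers, 4 tested, had 2 higher in SF/HA-HEP-PAM, 1 in SF/HA and 1 in Alkali-burned against Control and none lower, with Car2 at 1.13 in SF/HA-HEP-PAM, 2.03 in SF/HA and 2.42 in Alkali-burned. Car2 averaged 0.269 FPKM in Control, so it passed the filter through the other groups, which favours a higher call. In SF/HA-HEP-PAM against Alkali-burned 0 were higher and 2 lower, Car2 (-1.29) and Col8a2 (-1.03), and none was called in SF/HA against Alkali-burned or between the patches.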

How the data were processed

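RNA of 12 rat cornea samples was primed with poly(dT) primers that carried sample barcodes and molecular identifiers, per the labels' protocols. The authors deposited 1 table of FPKM values. Per the series text, the authors used fastp for cleaning and HTSeq-count for read counts, and computed FPKM. The submitters' processing notes name bcl2fastq, fastp, STAR and featureCounts with build mRatBN7.2. The counting tool differs between these sources, and collapsing of duplicate molecules is not given in either.

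The table held 30452 genes, and 108 lines naming no gene were left out. The length behind FPKM equals the genomic span, introns included, of all 30452 genes, which lowers the FPKM of genes with long introns. FPKM times length gave whole reads in every library within 9.36e-06 of a whole number, and these sum to 486264 to 2117399 reads per library. Read intervals are 95% Wilson intervals. Intervals and the level that 0 reads allow (3 reads) cover counting error only.

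Group differences were fitted with limma 3.58.1 in R 4.3.3 (trend in the variance) on log2(FPKM + 1) with all 12 libraries in 1 model of 4 group means, without a block, on the 6112 genes that reached 1 FPKM in 3 or more libraries. P-values were adjusted by Benjamini and Hochberg over all genes tested within a comparison. The thresholds, an adjusted p below 0.05 and a log2 difference above 1 or below -1, are those of the series text. The script was first tested on simulated data. Alternatives were other pseudocounts, filters and scalings, library weights, a replicate block, the compared libraries alone, voom on recovered reads (at least 10 reads in 3 libraries) and each library left out in turn.

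The members and all gene lists were chosen with earlier results of these data known. Named are all members, every other S100 gene, up to 4 called genes of largest difference and the gene of highest FPKM in a list, and the 5 genes with the profile nearest to S100a8 and to S100a7a; not every gene the rule allows is named, and 1 marker is not reported here. Sequences are from RefSeq on build GRCr8 and were matched by symbol; positions of genes are those of the table on mRatBN7.2. Plots came from matplotlib 3.10.9 under Python 3.11.15.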

Additional observations from a re-analysis of the deposited data

How the results depend on the processing

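Of 864 recomputed member differences, 808 kept their direction and call, 15 lost a call, 8 gained one and 33 changed sign, all of the last in differences that were not called; the causes were not tested. The count of members called in SF/HA-HEP-PAM against Alkali-burned was 1 and became 2, with S100a6 added, after quantile normalization, with library weights and with voom, and ranged from 1 to 2 with a library left out. In SF/HA-HEP-PAM against SF/HA it was 1, became 0 with no filter, and was 0 when any of the 6 patch libraries was left out. In SF/HA-HEP-PAM against Control it was 4, and 2 to 4 with a library left out. No pairing by replicate number was seen: of 18 pairs with the same number 2 correlated above 0.1 (r from -0.093 to 0.155), and 4 of 12 libraries correlated best with their own number. Such correlations cannot show that the samples were unpaired. With a replicate block, 2 members were called in SF/HA-HEP-PAM against Alkali-burned.

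Sign changes by scaling or weights were S100a11 in Alkali-burned against Control (-0.10, quantile), S100a11 (-0.030) and S100a16 (-0.047) in SF/HA-HEP-PAM against SF/HA (median of ratios), and, in SF/HA-HEP-PAM against Control, S100a14 (-0.083 quantile, -0.094 median of ratios, -0.13 weights) and S100a16 (-0.057, -0.086 and -0.16). With a library left out, ranges spanned 0 in Alkali-burned against Control for S100a10 (-0.20 to 0.11), S100a11 (-0.18 to 0.36) and S100a16 (-0.029 to 0.55), in SF/HA against Alkali-burned for S100a9 (-0.11 to 1.61), and in SF/HA-HEP-PAM against Alkali-burned for S100a8 (-0.68 to 1.80). They also did in SF/HA-HEP-PAM against SF/HA for S100a8 (-1.82 to 0.65), S100a9 (-0.66 to 1.28) and S100a10 (-0.31 to 0.039), in SF/HA against Control for S100a14 (-0.40 to 0.026) and S100a16 (-0.39 to 0.12), and in SF/HA-HEP-PAM against Control for S100a11 (-0.49 to 0.047), S100a14 (-0.16 to 0.27) and S100a16 (-0.22 to 0.29).

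Calls over all genes numbered 709 (1537 with voom) in SF/HA-HEP-PAM against Control, 267 (809) against SF/HA and 678 (1903) against Alkali-burned. In SF/HA they numbered 279 (421 with voom) against Control and 149 (238) against Alkali-burned, and in Alkali-burned against Control 348 (659). With a library left out, those of SF/HA-HEP-PAM against SF/HA fell to 88 without SF/HA-HEP-PAM replicate 1, 162 without its replicate 2, 89 without its replicate 3 and 150 without SF/HA replicate 3. Those of SF/HA against Alkali-burned fell to 75 without SF/HA replicate 2, 74 without Alkali-burned replicate 2 and 75 without Alkali-burned replicate 3, and those of Alkali-burned against Control to 225 without Alkali-burned replicate 3. List counts moved by over 1.5 times in 239 of 1344 recomputed values. With 2 to 21 reads behind the Control values of S100a4 and S100a7a, depth limits their folds.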
